A study of Homo sapiens with 8 samples.

Results

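The 9 genes described here encode enzymes that make fatty acids and hand them on to glycerolipids: ACLY, ACSS2, ACACA, ACACB and SCD on the synthesis side, ACSL1 and ACSL4 for activation to acyl-CoA, and the acyltransferases DGAT1 and MBOAT1. They were found by gene symbol in the platform annotation, from a list drawn up with earlier results of these arrays known. All 9 listed genes were found, on 10 probe sets (SCD had 2), out of 14884 gene symbols on 16098 probe sets. All 9 were among the 12239 genes bright enough to test, which asked for log2 values above 4 on each array of 1 group or more. MBOAT1 met that condition through the LX2 arrays alone.

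The study hybridised total RNA of human cell lines to Affymetrix whole-transcript arrays, 1 array per sample, to profile the response to inhibition of G9a and DNMT1 together. LX2 is a line of hepatic stellate cells, the collagen-producing cells of injured liver, and HepG2 is a hepatocellular carcinoma line. The 4 groups, with 2 arrays in each, were LX2 with CM272 at 400 nM for 48 h, LX2 with the vehicle alone (0.1% DMSO for 48 h), HepG2 with CM272 at 400 nM for 48 h, and HepG2 with 0.1% DMSO for 48 h. CM272 is a small molecule that acts on both enzymes: G9a methylates histone H3, and DNMT1 methylates DNA. All LX2 wells were kept in 2% fetal bovine serum and all HepG2 wells in 10%, so line and serum cannot be told apart, and each cell type is represented by 1 line. The labels do not state whether replicate arrays were separate cultures; the spread behind every p-value may therefore be technical.

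Fatty acid synthesis starts from cytosolic acetyl-CoA, which is carboxylated to malonyl-CoA and built into palmitate by fatty acid synthase. Desaturation, activation to acyl-CoA and esterification then direct the product to phospholipid or triglyceride. In liver the pathway is best known from hepatocytes, where the transcription factors SREBP-1c, LXR and ChREBP switch it on, while stellate cells are known for the retinyl ester droplets that they lose on activation. Malonyl-CoA also blocks the entry of acyl groups into mitochondria, which ties synthesis to fatty acid oxidation.

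The lines carried the markers of their labels in most cases. All 13 measured hepatocyte markers were over log2 4 in both arrays of HepG2 CM272 and of HepG2 control, against 5 of 13 in LX2 CM272 and 4 of 13 in LX2 control. ALB and AFP lay under that level on all 4 LX2 arrays. Of 10 measured stellate cell markers, 9 were over log2 4 in LX2 CM272, 8 in LX2 control and 7 in each HepG2 group, with VIM under it in HepG2 and LRAT, the retinol esterifying enzyme of quiescent stellate cells, under it in all 4 groups. Replicates differed most in LX2 CM272, where the median absolute gap over the tested genes was 0.26 log2, against 0.12 in LX2 control, 0.15 in HepG2 CM272 and 0.14 in HepG2 control.

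**Figure D1:**
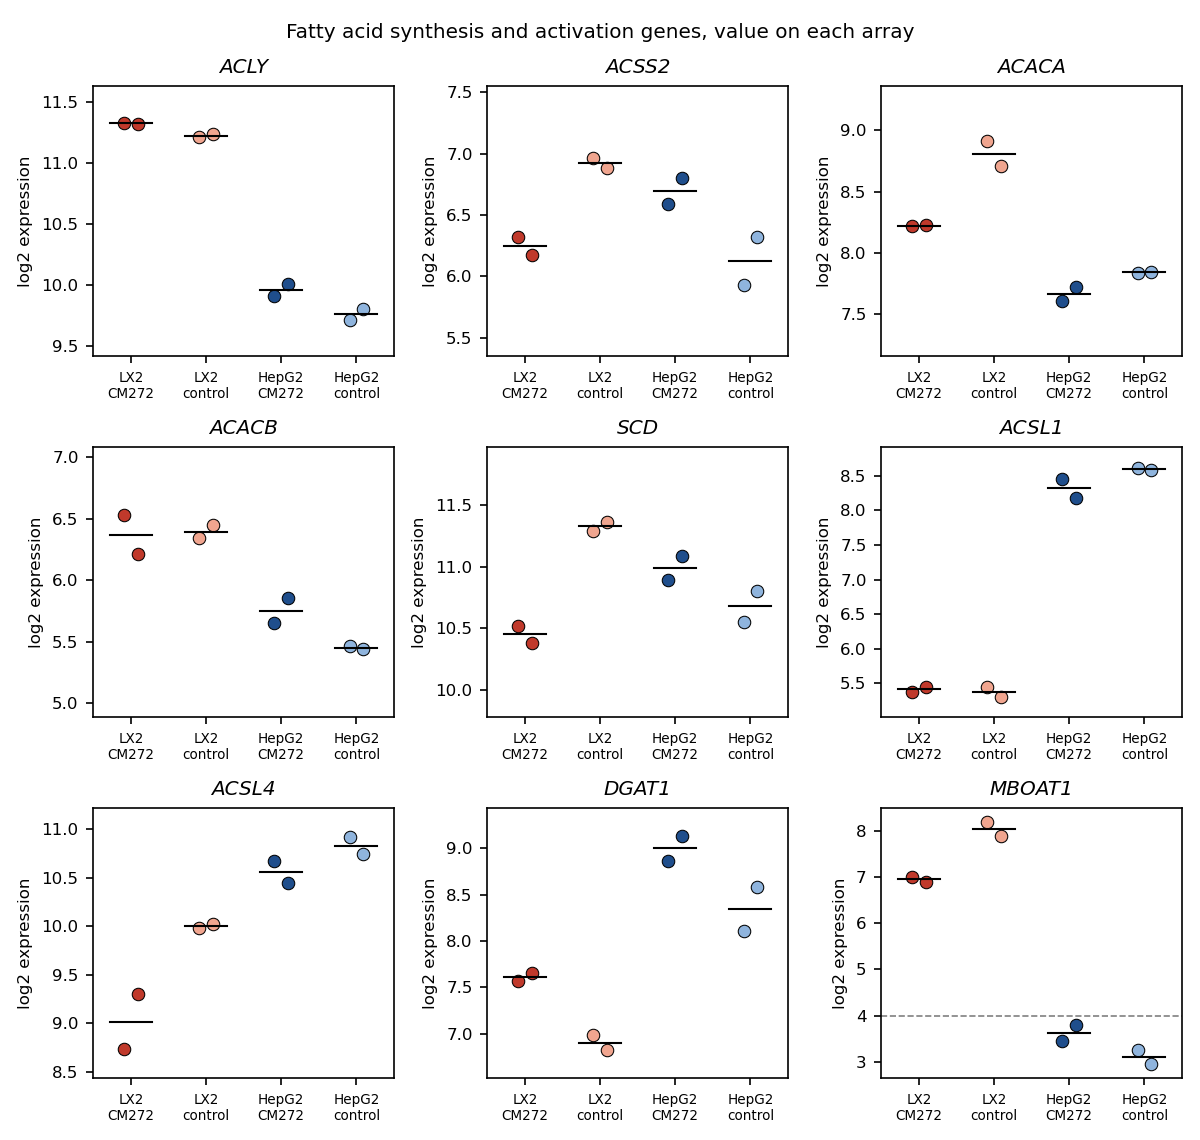
Log2 expression (vertical axis, a separate scale for each gene) of the 9 genes on each of the 8 arrays; points are arrays and bars are means of 2 arrays. The dashed line in the MBOAT1 panel marks the brightness filter at log2 4, under which all 4 HepG2 arrays lie. SCD, shown on its brighter probe set, sits lowest in LX2 CM272 (mean 10.45) and highest in LX2 control (11.33), with both HepG2 groups between them.

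Whether CM272 altered these genes in stellate cells was addressed by comparing LX2 CM272 with LX2 control. In LX2 with CM272, 5 of the 9 genes fell, namely MBOAT1, ACSL4, SCD, ACSS2 and ACACA, and DGAT1 rose. The falls ran from 0.59 log2 for ACACA to 1.09 for MBOAT1, which was 2.13-fold lower, and DGAT1 was 1.64-fold higher. ACLY, ACACB and ACSL1 did not pass the test. In bulk RNA of a culture, fewer cells that express a gene and less RNA per cell cannot be told apart. Over all 12239 tested genes, 4.63% were called lower, 3.79% higher and 8.42% either way (limma, Benjamini-Hochberg adjusted p under 0.05), a split of 567 lower to 464 higher. The split was 766 to 336 with arrays centred on their medians, but 16 to 81 without LX2 control replicate 1 and 5 to 50 without LX2 control replicate 2. Both CM272 arrays lay below both controls for 5 of the 9 genes and above them for 2 (DGAT1 and ACLY), against 28.6% and 23.5% of all tested genes. The median log2 change was -0.59 over the 9 genes and -0.02 over all tested genes. Because of how the list was drawn up, these counts describe the 9 genes and are not independent evidence of a direction.

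Acetyl-CoA for lipid synthesis comes from citrate through ACLY and from acetate through ACSS2, and the pair differed in LX2. ACSS2 (probe set 16912975) had log2 values of 6.32 and 6.18 in LX2 CM272, against 6.97 and 6.88 in LX2 control. Both treated arrays lay below both controls, and ACSS2 fell by 0.68 on the log2 scale (SE 0.17, limma adjusted p = 0.0380). ACLY (probe set 16844936) had 11.33 and 11.32 in LX2 CM272, against 11.21 and 11.23 in LX2 control. Its treated arrays lay just above the controls, but the change of 0.10 (95% interval -0.19 to 0.39) did not pass the test (limma adjusted p = 0.678).

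The acetyl-CoA carboxylases make malonyl-CoA, ACACA in the cytosol for synthesis and ACACB at the mitochondrial outer membrane. ACACA (probe set 16843728) had 8.22 and 8.23 in LX2 CM272, against 8.91 and 8.70 in LX2 control, without overlap. It fell by 0.59 (SE 0.14, limma adjusted p = 0.0334). ACACB (probe set 16756649) had 6.53 and 6.21 in LX2 CM272, against 6.34 and 6.45 in LX2 control. The ACACB arrays overlapped, with a change of -0.02 and a 95% interval of -0.37 to 0.33.

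SCD, the stearoyl-CoA desaturase that makes oleate and palmitoleate, had 10.52 and 10.38 in LX2 CM272, against 11.29 and 11.37 in LX2 control (probe set 16708249). All treated arrays were lower, and SCD fell by 0.88 (SE 0.15, 1.84-fold lower, limma adjusted p = 0.0117). Its dimmer probe set 16717557 had 4.06 and 3.80 in LX2 CM272, against 5.27 and 5.10 in LX2 control. There the change was -1.25 (SE 0.20, limma adjusted p = 0.0102 with every named probe set tested), in the same direction, although the mean of 3.93 in LX2 CM272 lay under the filter.

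The acyl-CoA synthetases couple free fatty acids to CoA. ACSL4, which prefers arachidonate and other polyunsaturated fatty acids, had 8.73 and 9.30 in LX2 CM272, against 9.99 and 10.03 in LX2 control (probe set 17113293). Both treated values were lower, yet they stood 0.56 apart, the widest gap between replicates in any group among the probe sets kept for the 9 genes. ACSL4 fell by 0.99 (SE 0.19, limma adjusted p = 0.0185), by 0.71 without LX2 CM272 replicate 1 and by 1.27 without LX2 CM272 replicate 2, both still past the test. ACSL1, the main form of liver and fat, had 5.37 and 5.45 in LX2 CM272, against 5.44 and 5.31 in LX2 control (probe set 16982047). The ACSL1 arrays overlapped, with a change of 0.04 and a 95% interval of -0.30 to 0.37.

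The acyltransferases went opposite ways. MBOAT1, which attaches acyl groups to lysophospholipids, had 7.01 and 6.90 in LX2 CM272, against 8.20 and 7.88 in LX2 control (probe set 17016043). It showed the largest change of the 9 genes in this comparison and fell by 1.09 (SE 0.18, 2.13-fold lower, limma adjusted p = 0.0115). DGAT1, which attaches the last acyl group of triglyceride, had 7.57 and 7.65 in LX2 CM272, against 6.98 and 6.82 in LX2 control (probe set 17082548). All treated arrays were higher, and DGAT1 rose by 0.71 (SE 0.18, limma adjusted p = 0.0442).

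The number of these genes past the test depended on single arrays. Leaving out either LX2 control array ended all 6 calls in limma (0 of 9), with 97 genes left over the whole table without the first and 55 without the second. Without LX2 CM272 replicate 1, HepG2 CM272 replicate 1 or HepG2 CM272 replicate 2, 3 were called lower in each case (MBOAT1, ACSL4 and SCD) and 0 higher. With LX2 fitted alone 2 were called, SCD and MBOAT1. The 6 genes called with all arrays kept their sign in all 19 alternative settings, and ACACA, ACSS2 and DGAT1 were past the test in 7, 10 and 9 of them.

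**Figure D2:**
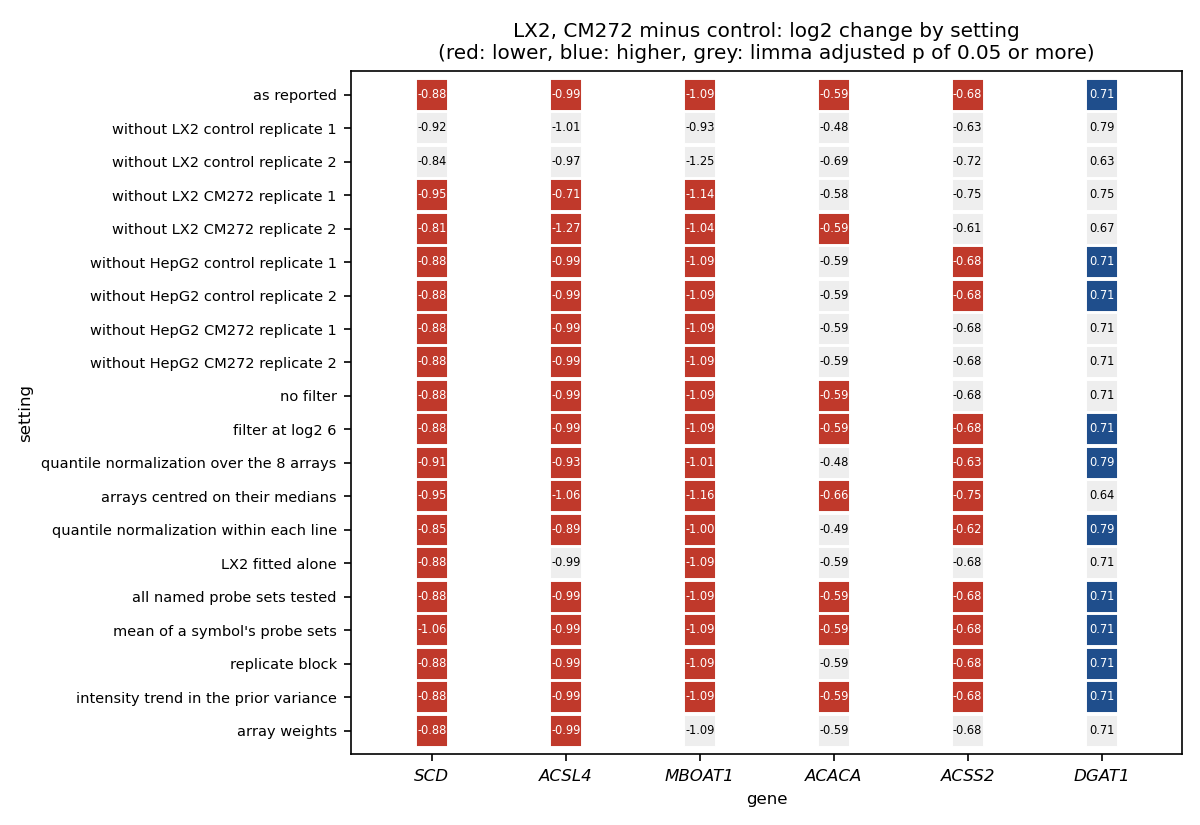
Log2 change of the 6 called genes in LX2, CM272 minus control, in the reported fit (top row) and 19 alternative settings (rows); each square prints the change, red (lower) or blue (higher) where limma's adjusted p was under 0.05 and grey otherwise. SCD stayed past the test in 17 alternatives, ACSL4 and MBOAT1 in 16 each, and ACACA in 7.

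Promoter sequence is shown for some of the genes that fell in LX2, from RefSeq windows (GRCh38.p14, 250 bases before to 50 after an annotated start). Such windows matched 7 of the 9 genes, with 16 starts in all, and of the genes that fell those of SCD, ACSS2 and ACSL4 are printed 5′ to 3′ on the coding strand. The windows of ACACA, which also fell, were at hand and are counted below but not printed. MBOAT1 had no window. Capitals mark each CCAAT box, the motif bound by NF-Y, a partner of SREBP at many lipid genes, read on either strand (ATTGG is the same box on the other strand).
SCD (chr10:100346983-100347282, plus strand): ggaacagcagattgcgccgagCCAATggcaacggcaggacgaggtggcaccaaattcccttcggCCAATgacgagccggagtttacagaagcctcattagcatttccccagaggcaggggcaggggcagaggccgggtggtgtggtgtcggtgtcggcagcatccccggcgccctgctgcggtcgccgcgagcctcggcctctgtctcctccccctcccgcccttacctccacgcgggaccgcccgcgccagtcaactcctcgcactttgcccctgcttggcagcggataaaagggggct
ACSS2, first start (chr20:34874739-34875038, plus strand): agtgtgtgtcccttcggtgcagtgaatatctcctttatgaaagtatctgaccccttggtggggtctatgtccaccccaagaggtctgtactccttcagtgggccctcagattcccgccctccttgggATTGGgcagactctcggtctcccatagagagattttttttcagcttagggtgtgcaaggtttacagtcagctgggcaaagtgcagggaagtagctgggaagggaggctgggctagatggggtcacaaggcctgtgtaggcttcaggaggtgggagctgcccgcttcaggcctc
ACSS2, second start (chr20:34876362-34876661, plus strand): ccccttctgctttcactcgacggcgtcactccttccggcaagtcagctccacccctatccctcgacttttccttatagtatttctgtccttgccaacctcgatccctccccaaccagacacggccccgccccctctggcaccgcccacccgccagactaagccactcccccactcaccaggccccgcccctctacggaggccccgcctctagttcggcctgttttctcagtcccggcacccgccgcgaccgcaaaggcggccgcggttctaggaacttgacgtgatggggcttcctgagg
ACSL4 (chrX:109733208-109733507, minus strand): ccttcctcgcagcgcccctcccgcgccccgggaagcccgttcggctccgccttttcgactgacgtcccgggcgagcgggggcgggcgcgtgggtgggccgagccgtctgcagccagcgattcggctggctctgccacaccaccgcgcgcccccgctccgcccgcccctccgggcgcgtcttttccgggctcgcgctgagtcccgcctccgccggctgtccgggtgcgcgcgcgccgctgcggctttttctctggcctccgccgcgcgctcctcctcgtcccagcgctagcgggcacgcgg
The SCD window held CCAAT 229 and 186 bases before the start, the first ACSS2 window held it once, 123 bases before the start on the other strand, and the second ACSS2 window and the ACSL4 window held none. Over all 16 windows 8 held CCAAT, against 34.6% of 34943 promoter windows of the same length. The 8 came from 6 of the 7 genes, a count per gene for which no share over all genes was taken. The letters TCACNCCAC of the sterol regulatory element were in 1 of the 16 windows, at 1 of the 5 starts of ACSL1 on the other strand, against 1.12% of all windows. The E-box CACGTG was in 0 of 16 (7.23% of all), and the GC box GGGCGG in 11 of 16 (44.9% of all). No match of one motif overlapped a match of another. The ACLY windows overlap each other, so that the same CCAAT and GC boxes are counted in both. CCAAT was in windows of SCD, ACACA and ACSS2, which fell in LX2, and in windows of ACLY, ACACB and ACSL1, which did not pass the test.

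Whether the hepatoma line responded in the same genes was addressed by comparing HepG2 CM272 with HepG2 control. None of the 9 genes passed limma in HepG2 (0 of 9, with 3 at an unadjusted p under 0.05, all of them higher and 0 lower), where 0.00817% of all genes were called lower, 1 gene in all, and 0 were called higher. The 3 were DGAT1, ACSS2 and MBOAT1, the last with values under the brightness filter, and that mark (unadjusted p under 0.05) was met by 4.76% of all genes upward and 6.7% downward. The median log2 change was 0.30 over the 9 genes and -0.02 over all tested genes. In HepG2 6 of the 9 genes, MBOAT1 under the filter among them, had both CM272 arrays above both controls, and 3 had them below, against 20.7% and 28.2% of all tested genes.

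DGAT1 had 8.86 and 9.13 in HepG2 CM272, against 8.11 and 8.58 in HepG2 control, a change of 0.65 (95% interval 0.24 to 1.06, limma adjusted p = 0.264). The controls differed by 0.47, the widest gap among the 9 genes in that group. ACSS2 had 6.59 and 6.80 in HepG2 CM272, against 5.93 and 6.32 in HepG2 control, a change of 0.57 (95% interval 0.20 to 0.94, limma adjusted p = 0.284). MBOAT1 had 3.44 and 3.80 in HepG2 CM272, against 3.26 and 2.94 in HepG2 control, all under the brightness filter, so that no change is read from them.

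SCD had 10.89 and 11.09 in HepG2 CM272, against 10.56 and 10.80 in HepG2 control, with a change of 0.31 (95% interval -0.03 to 0.65). ACACB, the mitochondrial carboxylase, had 5.65 and 5.86 in HepG2 CM272, against 5.47 and 5.44 in HepG2 control, with a change of 0.30 (95% interval -0.05 to 0.65). Their treated arrays lay above the controls without passing the test. The dimmer SCD probe set had 5.04 and 5.65 in HepG2 CM272, against 4.85 and 4.89 in HepG2 control (0.47, limma adjusted p = 0.427).

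ACLY, the citrate enzyme, had 9.91 and 10.01 in HepG2 CM272, against 9.71 and 9.80 in HepG2 control, with a change of 0.20 (95% interval -0.09 to 0.49). ACACA, ACSL4 and ACSL1 lay lower with CM272. ACACA had 7.61 and 7.72 in HepG2 CM272, against 7.84 and 7.84 in HepG2 control, with a change of -0.18 (95% interval -0.49 to 0.13). ACSL4 had 10.67 and 10.45 in HepG2 CM272, against 10.92 and 10.74 in HepG2 control, with a change of -0.27 (95% interval -0.71 to 0.16). ACSL1 had 8.46 and 8.17 in HepG2 CM272, against 8.62 and 8.58 in HepG2 control, with a change of -0.28 (95% interval -0.61 to 0.05). Of the 6 genes called in LX2, DGAT1 alone had its LX2 change inside the HepG2 interval. That comparison leaves out the error of the LX2 change, and for MBOAT1 it rests on arrays under the filter. It is therefore no test of a difference between lines, which follows below. A missing call does not show that a gene did not respond.

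Whether the response differed between the lines was tested directly, as the CM272 change in HepG2 minus that in LX2. Of the 8 genes bright enough in both lines, 2 differed, ACSS2 and SCD, each with a more positive change in HepG2, where 0.36% of all tested genes were called in that direction, 0.825% in the other and 1.18% either way. For SCD the difference was 1.19 (SE 0.21, 95% interval 0.71 to 1.67, limma adjusted p = 0.0367). Its dimmer probe set gave 1.72 (SE 0.29, limma adjusted p = 0.0303). For ACSS2 it was 1.24 (SE 0.23, 95% interval 0.72 to 1.77, limma adjusted p = 0.0416). The fit returned 1.61 for MBOAT1, also past the threshold, but all 4 HepG2 arrays lay under the filter, so that no difference in response is read from it.

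The order of the 4 groups shows the same values another way. SCD averaged 10.99 ± 0.14 in HepG2 CM272 and 10.45 ± 0.10 in LX2 CM272 (SD, n = 2 each), but 10.68 ± 0.18 in HepG2 control and 11.33 ± 0.06 in LX2 control (SD, n = 2 each), and no neighbouring groups overlapped. The dimmer SCD probe set averaged 5.35 in HepG2 CM272 and 3.93 in LX2 CM272, but 4.87 in HepG2 control and 5.18 in LX2 control. There HepG2 CM272 had the highest mean, and its arrays overlapped those of LX2 control. ACSS2 averaged 6.69 ± 0.15 in HepG2 CM272 and 6.25 ± 0.10 in LX2 CM272 (SD, n = 2 each), but 6.13 ± 0.27 in HepG2 control and 6.92 ± 0.06 in LX2 control (SD, n = 2 each), with LX2 CM272 and HepG2 control overlapping. For these genes, but for none of the other members, the line with the higher mean was not the same with CM272 as with vehicle.

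The DGAT1 changes of 0.65 in HepG2 and 0.71 in LX2 gave a difference of -0.06 and a 95% interval of -0.64 to 0.52. ACSL4 differed by 0.72 (95% interval 0.10 to 1.33), ACACA by 0.41 (95% interval -0.03 to 0.85), ACACB by 0.32, ACLY by 0.10 and ACSL1 by -0.32, none past the test. The ACSS2 and SCD calls, and that of MBOAT1, were lost in limma (0 left) when 1 array was dropped among LX2 control replicates 1 and 2, HepG2 control replicates 1 and 2, and HepG2 CM272 replicate 2, and 1 was left, MBOAT1, without HepG2 CM272 replicate 1. Without LX2 CM272 replicate 2 there were 4, with ACSL4 added. With the replicate number as a block 0 were called, and with no filter or with array weights 1 was, MBOAT1. SCD and ACSS2 were each past the test in 9 of 18 alternative settings, while the differences ran from 1.06 to 1.46 for SCD and from 1.05 to 1.44 for ACSS2.

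**Figure D3:**
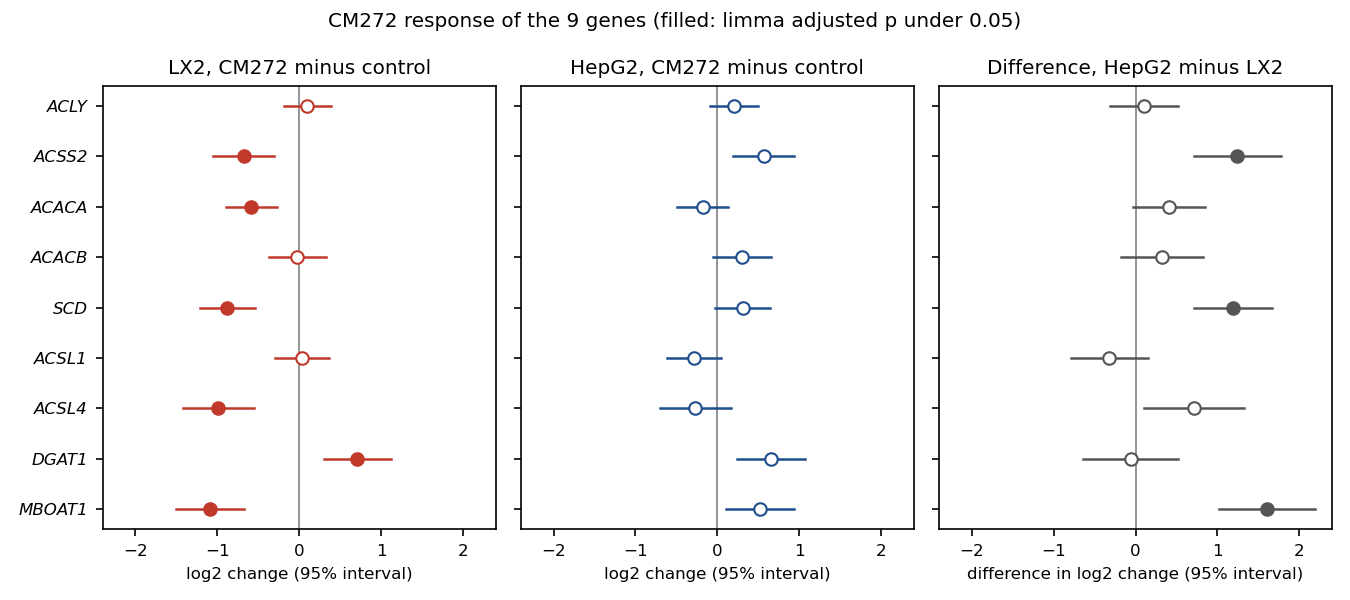
Log2 change with CM272 in LX2 (left), in HepG2 (middle) and the difference between lines, HepG2 minus LX2 (right), with 95% intervals from limma; filled points have an adjusted p under 0.05. In LX2 5 filled points lie left of 0 and DGAT1 lies at 0.71, no point is filled in HepG2, and SCD, ACSS2 and MBOAT1 are filled on the right, MBOAT1 with all its HepG2 arrays under the brightness filter.

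How the lines differ without the compound was addressed by comparing HepG2 control with LX2 control. The 8 genes bright enough in both lines all differed, 3 higher and 5 lower in HepG2, and MBOAT1 was over log2 4 in LX2 alone, in a comparison where 17.7% of all tested genes were called higher, 40.5% lower and 58.1% either way. None of the 8 overlapped between the lines (3 above and 5 below), against 27.6% above and 55.8% below over all tested genes. The excess of lower calls went with a median of -0.27 log2 over all tested genes. When all 8 arrays were quantile-normalized together, that median was -0.01. The calls over all genes were then 3206 higher and 3571 lower, in place of 2161 and 4952. All 8 genes kept their direction and their call in the 18 alternative settings. The dimmer SCD probe set, given below, did not pass the test.

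ACSL1 was the gene with the clearest excess in HepG2, with 8.62 and 8.58 in HepG2 control, against 5.44 and 5.31 in LX2 control. The difference was 3.22 (SE 0.15, 9.34-fold higher in HepG2, limma adjusted p = 8.82e-08). DGAT1 had 8.11 and 8.58 in HepG2 control, against 6.98 and 6.82 in LX2 control, a difference of 1.45 (limma adjusted p = 9.65e-05). ACSL4 had 10.92 and 10.74 in HepG2 control, against 9.99 and 10.03 in LX2 control, a difference of 0.82 (limma adjusted p = 0.00470).

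MBOAT1 went the other way, with 3.26 and 2.94 in HepG2 control, under the filter, against 8.20 and 7.88 in LX2 control. It passed the brightness filter through LX2, where it was high, so that no size or test of the difference is given. ACLY had 9.71 and 9.80 in HepG2 control, against 11.21 and 11.23 in LX2 control, a difference of -1.47 (limma adjusted p = 8.23e-06). The enzymes that supply acetyl-CoA and malonyl-CoA were all lower in HepG2, since ACSS2 differed by -0.80, ACACA by -0.97 and ACACB by -0.94. SCD differed by -0.65 (limma adjusted p = 0.00446). Its dimmer probe set had 4.85 and 4.89 in HepG2 control, against 5.27 and 5.10 in LX2 control. There the difference was -0.31 (SE 0.20) and did not pass the test (limma adjusted p = 0.220 with every named probe set tested). Taken relative to the median of all genes, ACLY stood at -1.19, ACACA at -0.69, ACACB at -0.67, ACSS2 at -0.52 and SCD at -0.38.

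Other genes of lipid metabolism were counted from 7 lists, of which the array annotation named only part. In LX2 CM272 against LX2 control, 2 of the 88 tested genes of the lists were called higher and 2 lower, against 3.79% and 4.63% of all tested genes. The 17 tested other genes of fatty acid synthesis, elongation and desaturation had a median log2 change of -0.23, against -0.02 over all tested genes. Of these 17, 1 was called higher and 0 lower. The gene was ELOVL3, an elongase of very long chains, with 4.72 and 4.47 in LX2 CM272, against 3.25 and 4.01 in LX2 control. Of 12 other acyl-CoA synthetases 1 was called higher, ACSBG1 of the bubblegum family, with 4.89 and 4.94 in LX2 CM272, against 4.12 and 3.54 in LX2 control. Both genes entered the test through LX2 CM272 alone, the group where they were high. The filter itself therefore favoured a higher value there, and no size or p is given.

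Among 11 lipogenic regulators INSIG1 fell, the sterol-responsive protein that holds SREBP back in the endoplasmic reticulum. It had 9.45 and 9.42 in LX2 CM272, against 10.28 and 10.21 in LX2 control (-0.81, SE 0.13, limma adjusted p = 0.0102), and the call was lost without either LX2 control array. Among 11 fatty acid oxidation genes HADH fell, a mitochondrial hydroxyacyl-CoA dehydrogenase, with 6.14 and 6.12 in LX2 CM272, against 7.11 and 6.84 in LX2 control (-0.84, SE 0.16, limma adjusted p = 0.0162; also lost without either LX2 control array). Its change differed between lines by 1.30, HepG2 minus LX2 (SE 0.22, limma adjusted p = 0.0319), a call lost without any 1 of the LX2 control or HepG2 arrays. INSIG1 lay under the filter on all HepG2 arrays, and no difference between lines is read for it. None of 18 other glycerolipid acyltransferases, 15 lipid droplet and lipolysis genes or 4 genes of fatty acid uptake passed limma in LX2 (0 called, with 3, 1 and 1 at an unadjusted p under 0.05, a mark that 25.3% of all tested genes met).

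In HepG2 CM272 against HepG2 control, 0 of 88 tested genes of the 7 lists passed limma, with 19 at an unadjusted p under 0.05, against 11.5% of all tested genes. The medians ran from -0.12 for fatty acid uptake to 0.19 for fatty acid oxidation. FASN, SREBF1, FADS1, FADS2, ACSL5 and PLIN2 lie outside the naming rule and were chosen after their values were seen, for their place in the pathway. FASN, fatty acid synthase, had 8.84 and 8.02 in LX2 CM272, against 8.49 and 8.46 in LX2 control, so that its treated arrays lay on both sides of the controls (-0.05, SE 0.24). SREBF1, which encodes SREBP-1, had 6.00 and 5.60 in LX2 CM272, against 6.01 and 6.02 in LX2 control (-0.22, limma adjusted p = 0.468). The desaturases FADS1 and FADS2 differed by -0.62 (limma adjusted p = 0.0564) and -0.48 (limma adjusted p = 0.180) in LX2. PLIN2, a lipid droplet coat protein, had 6.92 and 6.71 in HepG2 CM272, against 7.70 and 7.47 in HepG2 control (-0.77, limma adjusted p = 0.227).

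**Figure D4:**
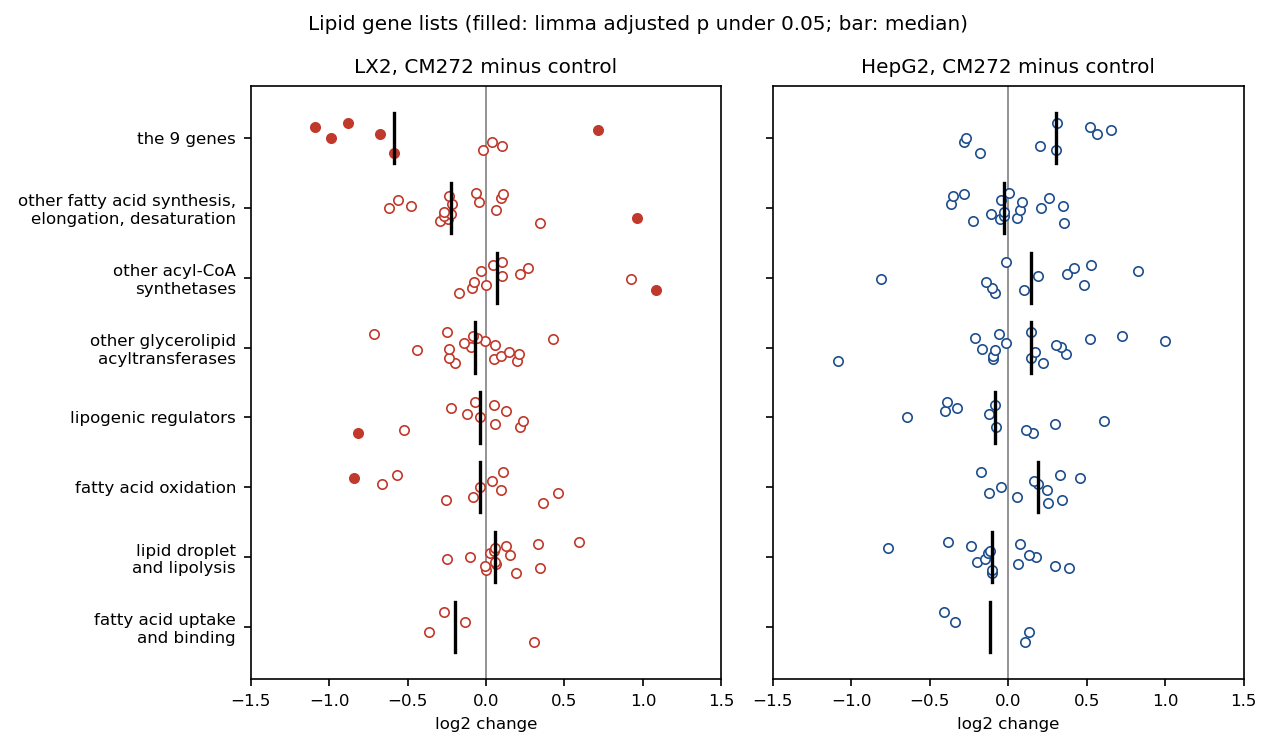
Log2 change with CM272 (horizontal axis) in LX2 (left) and HepG2 (right) for the 9 genes (top row) and the tested genes of 7 other lipid lists; each point is a gene, filled where limma's adjusted p was under 0.05, and bars are medians. In LX2 the 9 genes hold 6 filled points and the 7 lists 4, of which ELOVL3 and ACSBG1 entered the test through LX2 CM272 alone, and in HepG2 none is filled.

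Markers of other cell types are given beside the LX2 result. Of 13 measured hepatocyte markers 0 changed in LX2 with CM272 in limma (3 at an unadjusted p under 0.05), and the log2 of their summed linear level was 7.66 to 7.89 in LX2 CM272, against 7.66 to 7.69 in LX2 control. Of 9 tested stellate cell markers DES rose and LOX fell in limma, with 6 of 9 at an unadjusted p under 0.05. That mark was met by 25.3% of all tested genes. The log2 sum over the 10 measured markers was 11.26 to 11.38 in LX2 CM272, against 11.66 to 11.67 in LX2 control. That sum weighs the brightest markers most. The mean log2 value of the 10 was 6.60 on both LX2 CM272 arrays, against 6.57 to 6.61 in LX2 control. Their median was 5.98 to 6.26 in LX2 CM272, against 5.71 to 5.96 in LX2 control. CD14 rose among 5 tested leukocyte markers (log2 sum over 6 measured of 10.19 to 10.57 in LX2 CM272, against 10.33 to 10.34 in LX2 control), and 0 of 5 endothelial markers changed in limma (0 at an unadjusted p under 0.05; log2 sum over 8 measured of 7.55 to 7.75 in LX2 CM272, against 7.47 to 7.52 in LX2 control). The DES call was lost without LX2 control replicate 2 or LX2 CM272 replicate 2, and those of LOX and CD14 without either LX2 control array. The part of these cell types in the result was not tested.

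Likeness of pattern was described by Pearson's r over the 8 arrays after each line's mean was subtracted, among all tested genes outside the 9. The arrays fall into treated and control sets, may share normalization, and number only 8. SCD was most like MKI67 (r = 0.995) and TMTC4 (0.992), ACACA like CCNF (0.992) and HDDC2 (0.992), and ACSL4 like TBK1 (0.993) and EXOC2 (0.991). ACSS2 was most like SHC3 (0.991) and EGFR (0.987), MBOAT1 like ZNF713 (0.982) and PRMT2 (0.980), and DGAT1 like BABAM2-AS1 (0.974) and PEPD (0.972). For the genes without a call in LX2, ACACB was most like FAXDC2 (0.989) and EHMT2 (0.978), ACLY like HP (0.979) and TMEM94 (0.977), and ACSL1 like DCAF12 (0.976) and CMTM3 (0.969).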

How the data were processed

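RNA of 8 samples (4 groups of 2) was measured on Affymetrix arrays. The deposited table holds log2 expression values per probe set, which the authors made with RMA, per the submitters' processing notes; the version and the genome build of the array design were not given in the sources used here. RMA compresses folds of dim genes, and arrays give no counts, so their number limits the precision. Values ran from 0.49 to 14.07, with array medians of 4.42 to 4.54 in LX2 and 4.19 to 4.25 in HepG2. The sources used here did not state whether both lines were normalized in 1 run of RMA, which bears on levels compared between lines. The platform annotation gave a single symbol to 16098 of the 48416 probe sets, and the brightest per symbol was kept.

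Genes over log2 4 in both arrays of at least 1 group were tested in 1 fit of limma 3.58.1 (R 4.3.3) with a mean per group, two-sided, with Benjamini-Hochberg adjustment over 12239 genes and a threshold of 0.05. With 2 arrays per group, the smallest p an exact permutation test allows is 0.333. Intervals are 95% from the moderated test (9.47 degrees of freedom). On simulated arrays for LX2 CM272 against LX2 control, 12229 genes tested, the fit recovered 65% of changes of log2 1 and 99% of log2 2. Only 100 of the brighter genes were changed at each size, and 12 unchanged genes were called. Noise was normal, with the same spread in every group for a gene. The wider replicate gap of LX2 CM272 was not simulated, so these shares need not hold for the real arrays.

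The 9 genes, the 7 lipid and 4 marker lists, and the tests were chosen with earlier results of these data known. All 9 genes were named, with up to 4 called genes per list and treatment comparison by size of change and, for each of the 9, the 2 genes most like it. Settings tried were each array left out, no filter and log2 6, 3 normalizations, each line alone, 2 rules for probe sets, a replicate block, an intensity trend and array weights. Promoters came from RefSeq (GRCh38.p14). Figures were drawn with matplotlib 3.10.9.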

Additional observations from a re-analysis of the deposited data

Results flagged for a closer look

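The CM272 change differed between HepG2 and LX2, in limma's test of the difference itself, for SCD and ACSS2. HepG2 minus LX2, it was 1.187 log2 for SCD and 1.245 for ACSS2. Both genes were lower in both LX2 CM272 arrays than in both LX2 control arrays, and higher in both HepG2 CM272 arrays than in both HepG2 control arrays. Over all tested genes, 28.6% lay lower in that way in LX2 and 20.7% higher in HepG2. The HepG2 changes themselves did not pass the test (limma adjusted p = 0.468 for SCD and 0.284 for ACSS2). Neither call of a difference held with the replicate number as a block, or with 1 array dropped among the 2 LX2 control and the 4 HepG2 arrays. The fit also returned 1.609 for MBOAT1, whose 4 HepG2 arrays all lay under the brightness filter of log2 4, so that no HepG2 direction is read from it. Groups of 2 arrays are too small for a test of single outlying samples.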

How the results depend on the processing

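Of 665 values of the 9 genes under alternative settings, 589 kept direction and side of the threshold, 63 lost the call, 1 gained it and 12 changed sign, all 12 for changes near 0 that were not called. With single arrays left out, the genes called among the 9 numbered 0 to 5 in LX2 (6 with all arrays), 0 in HepG2, 0 to 4 for the difference between lines (3 with all arrays, MBOAT1 under the filter in HepG2 among them) and 9 between the controls. MBOAT1 is also counted in the 9 between the controls, where its call is not read. Over all genes the counts were 55 to 2496 in LX2, 0 to 1 in HepG2, 18 to 918 for the difference and 5684 to 7983 between the controls, against 1031, 1, 145 and 7113. In LX2, 2 of the 9 and 207 of all genes were called with the line fitted alone, and 2 and 283 with array weights. Centring arrays on their medians gave 336 higher and 766 lower genes in LX2, in place of 464 and 567. In HepG2 2 genes were called with no filter, 4 with the filter at log2 6, 4 with an intensity trend and 5 with array weights. For the difference, 1 of the 9 and 79 of all genes were called with no filter, 1 of the 9 with array weights, 371 of all genes with the filter at log2 6 and 291 with an intensity trend. The causes were not tested, beyond the smaller number of arrays or genes in some settings.

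With the replicate number as a replicate block, 5 of the 9 genes were called in LX2 (ACACA was lost, limma adjusted p = 0.0549), 0 in HepG2 (6 over all genes), 0 for the difference (71 over all genes; SCD 0.0596, ACSS2 0.0532 and MBOAT1 0.0576 in limma) and 9 between the controls. The 9 between the controls include MBOAT1, under the filter in HepG2, whose call is not read. Same-numbered arrays deviated together only weakly (r = 0.08 in LX2 and 0.07 in HepG2 across genes), so the numbers were not taken as pairs.

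Signs changed in LX2 for ACACB (0.032 without LX2 control replicate 2, 0.1378 without LX2 CM272 replicate 2, 0.0285 with quantile normalization over the 8 arrays, 0.0279 within each line; -0.1826 to 0.1378 with single arrays left out) and for ACSL1 (-0.0303 and -0.0037 without the same arrays, -0.0011 with each quantile normalization, -0.038 with arrays centred; -0.0303 to 0.1024 with single arrays left out). For the difference between lines DGAT1 changed sign without LX2 control replicate 2 (0.0236), HepG2 control replicate 2 (0.1788) and HepG2 CM272 replicate 1 (0.0757), with a range of -0.2959 to 0.1788 over single arrays left out. With the filter at log2 6, genes dim in both lines dropped out. Values under log2 4, such as MBOAT1 in HepG2, are limited by signal over background.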
